A study of Mus musculus with 5 samples.

Results

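Oxidative phosphorylation is carried out by 5 protein complexes in the inner mitochondrial membrane, and their subunits are encoded in 2 genomes. The genes described here are protein-coding genes chosen by symbol for these subunits: 90 nuclear genes (symbols beginning with Nduf, Uqcr or Atp5, the 4 Sdh genes, and Cox4 to Cox8 with their isoforms) and the 13 mt- genes of the mitochondrial chromosome. The choice leaves out Cyc1, the cytochrome c1 of complex III, and takes in the ATP synthase inhibitor Atp5if1. The rule that picks them uses gene symbols and biotype, and they are 103 of the 56941 gene identifiers in the deposited count table. The tissue was the iridocorneal angle, the ring between iris and cornea through which aqueous humor leaves the eye, taken from untreated mice 12 months old. There were 3 pools of DBA/2J tissue and 2 pools of Gpnmb+ tissue. DBA/2J mice carry the Tyrp1 b allele and a nonsense allele of Gpnmb, and develop pigment dispersion and glaucoma. Gpnmb+ mice carry the same Tyrp1 b allele with a functional Gpnmb. The iris and ciliary body were dissected away under the microscope, but remnants of both stayed on the ring. The series describes 3 mice of mixed sex in each pool, while the library names list 3 animals for each DBA/2J pool and 2 for each Gpnmb+ pool.

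Complexes I to IV form the respiratory chain. Complex I (NADH dehydrogenase) and complex II (succinate dehydrogenase, also an enzyme of the citric acid cycle) pass electrons to coenzyme Q, complex III (the cytochrome bc1 complex) passes them to cytochrome c, and complex IV (cytochrome c oxidase) passes them to oxygen. Protons pumped by complexes I, III and IV drive complex V, the ATP synthase. Complex II is wholly nuclear, while the other complexes combine nuclear subunits with subunits made inside the mitochondrion. The mt- mRNAs are cut from long transcripts of the mitochondrial chromosome made by a dedicated RNA polymerase, so their supply is controlled separately from that of the nuclear subunits.

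Between 43900661 and 49837758 counts fell on genes in each pool. Gpnmb, the gene that distinguishes the strains, stood at 43.6 to 52.0 counts per 1000000 (CPM, scaled by edgeR's TMM factors) in DBA/2J and at 2555 and 2260 CPM in Gpnmb+. Sex-linked RNA also separated the groups. Ddx3y, a Y-linked gene, was counted 3608, 4168 and 1567 times in the DBA/2J pools (numbered 1 to 3, values in that order) but 0 and 4 times in the Gpnmb+ pools. Xist, the RNA of the inactive X chromosome, was counted 596, 0 and 2417 times against 7843 and 9152 times. The sources describe both sexes in the Gpnmb+ group, and the near absence of Ddx3y from both Gpnmb+ pools goes against that description. Genotype and the sex of the animals therefore cannot be told apart in any comparison below. Every p-value measures the spread between pools, each of which already averages over several mice.

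The counts of the mt- genes followed how much of each gene is unique in the genome. The deposited counts hold only reads that aligned to a single place, and the nuclear genome carries copies of mitochondrial DNA. An exact search of GRCm39 with every 100-base window (the length of 1 read) of each mt- gene found a near-identical copy on chromosome 1 at chr1:24650616-24655265, minus strand, 4650 bases long. It matches positions 6394 to 11042 of the mitochondrial chromosome, from inside mt-Co1 to inside mt-Nd4. The edge of that copy is shown because it is where mt-Co1 ceases to be distinguishable. The first line below is chrM:6334-6453, plus strand, within mt-Co1, with capitals from the first base of the copied stretch. The second line is chr1:24655206-24655325, minus strand, with capitals at every base identical to the first line. The other pair of lines shows the first 40 bases of mt-Nd3 (chrM:9459-9498, plus strand) and the same stretch of the copy (chr1:24652161-24652200, minus strand), with capitals at the only base of the gene that differs, T3C counted from the first base of mt-Nd3.
mt-Co1 edge: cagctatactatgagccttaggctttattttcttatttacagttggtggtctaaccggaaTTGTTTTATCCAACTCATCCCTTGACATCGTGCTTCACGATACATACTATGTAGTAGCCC
chromosome 1 copy at the mt-Co1 edge: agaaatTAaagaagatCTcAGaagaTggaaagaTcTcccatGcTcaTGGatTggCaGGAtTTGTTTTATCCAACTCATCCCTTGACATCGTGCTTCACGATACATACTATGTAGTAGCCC
mt-Nd3 start: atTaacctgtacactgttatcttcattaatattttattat
chromosome 1 copy of the mt-Nd3 start: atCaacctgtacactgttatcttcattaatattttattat

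The 6 genes inside the copied stretch were close to absent from the count table. mt-Co2, mt-Co3, mt-Atp6, mt-Atp8 and mt-Nd4l had no 100-base window that occurs once in the genome, and mt-Nd3 had 1.2% of its windows unique, those that span the base that differs in GRCm39. Whether the mice sequenced here carry the same bases as GRCm39 was not examined. These 6 genes had at most 78 counts in any pool. The other 7 mt- genes had between 7893 and 692358 counts per pool. Of these, all windows were unique in mt-Nd1, mt-Nd5, mt-Nd6 and mt-Cytb, 96.8% in mt-Nd2, 69.2% in mt-Co1 and 39.2% in mt-Nd4. mt-Nd2 and mt-Co1 also share shorter stretches with chromosome 2, of which the longest is the 148 bases of mt-Co1 at chr2:22479199-22479346. Levels of mt-Co1 and mt-Nd4 per kilobase are accordingly given without correction for the part that cannot be assigned, and the low counts of the other 6 genes are not a measure of their RNA.

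**Figure D1:**
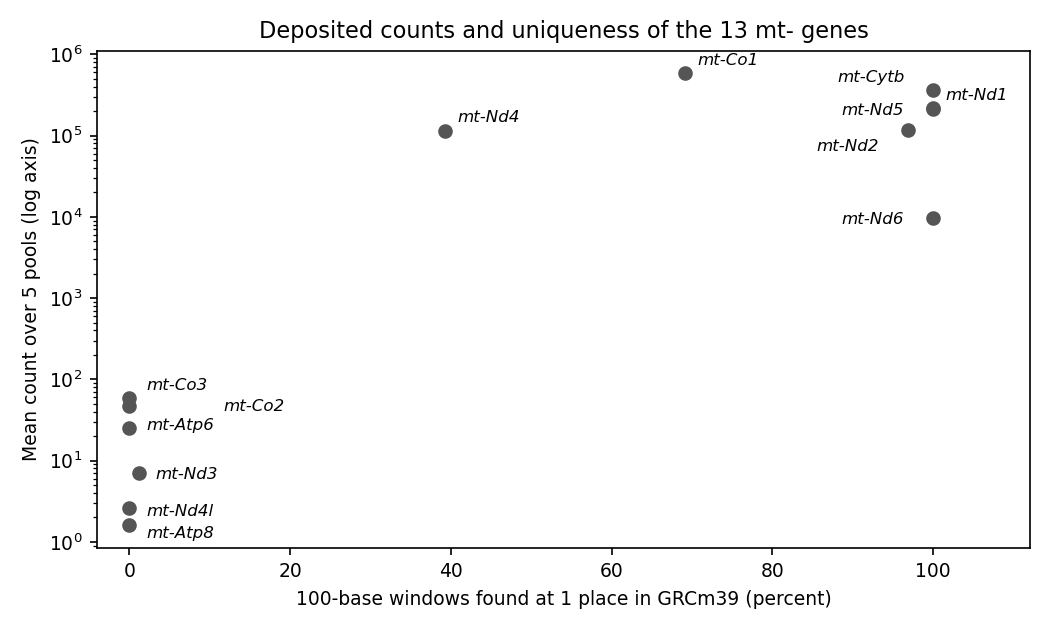
Each point is 1 of the 13 mt- genes, with the percentage of its 100-base windows found at 1 place in GRCm39 on the x axis and its mean deposited count over the 5 pools on a log y axis. The 6 genes with at most 1.2% unique windows lie below 100 counts, and the 7 others lie above 7893.

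The mt- mRNAs made up a larger part of the DBA/2J libraries. The 13 mt- genes held 3.89%, 4.44% and 3.87% of each DBA/2J library, while they held 2.98% and 2.48% of the Gpnmb+ libraries. All 3 DBA/2J pools were above both Gpnmb+ pools. The means were 4.07% ± 0.323 (SD, n = 3) and 2.73% ± 0.350 (SD, n = 2), a ratio of 1.49. The 90 nuclear genes held 0.844%, 0.835% and 0.871% in DBA/2J against 0.831% and 0.835% in Gpnmb+, a ratio of 1.02. The counting intervals of these shares (Wilson, 95%) were narrow, for example 4.435% to 4.447% in DBA/2J pool 2, and cover counting error only. In TMM-scaled CPM the 90 nuclear genes summed to 8660, 8547 and 8576 in DBA/2J against 8159 and 8243 in Gpnmb+, and the groups did not overlap. On that scale the ratio of the means was 1.05 for the nuclear genes and 1.53 for the mt- genes. The number of mt- counts per nuclear count was 4.61, 5.32 and 4.44 in DBA/2J against 3.58 and 2.97 in Gpnmb+, a difference of 0.55 on the log2 scale. No test over the summed genes was made, and 3 pools against 2 cannot give an exact two-sided permutation p below 0.2. In bulk tissue a higher level per cell and a larger number of cells rich in an RNA cannot be told apart.

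**Figure D2:**
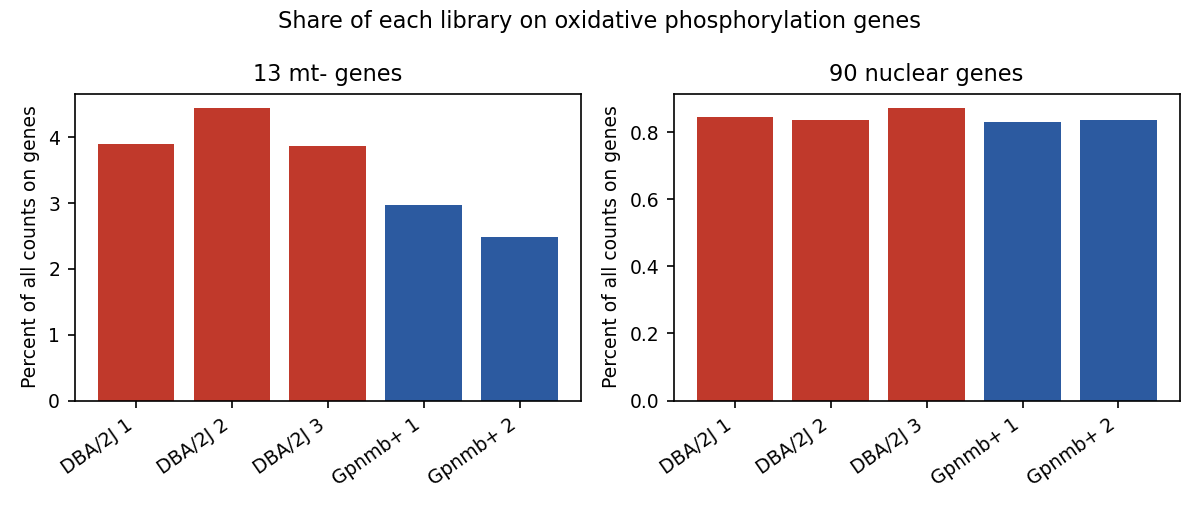
Bars give the percentage of all counts on genes that fell on the 13 mt- genes (left) and the 90 nuclear genes (right) in each DBA/2J pool (red) and Gpnmb+ pool (blue). The mt- share is 3.87% to 4.44% in DBA/2J and 2.48% to 2.98% in Gpnmb+, while the nuclear share lies between 0.831% and 0.871% in all pools.

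No member passed the main test. In edgeR's quasi-likelihood fit over the 19713 genes that reached 10 counts in any pool, 97 members were tested (86 nuclear, 11 mt-), and 0 reached an adjusted p of 0.05 with a 1.5-fold change, against 0.796% of all genes tested. At an unadjusted p of 0.05 the fit held 7 mt- genes and 4 nuclear genes higher in DBA/2J, where 8.31% of all tested genes were, and 3 nuclear genes lower, where 7.6% were. DESeq2, the study's own tool, held the same 7 mt- genes and 2 nuclear genes as higher at an adjusted p of 0.05 with no fold minimum (4.29% of all genes) and 2 nuclear genes as lower (2.67%), where 6.96% of all genes passed in either direction. At its unadjusted p of 0.05 it held 7 mt- genes and 11 nuclear genes, beside 16.1% of all genes. With the 1.5-fold minimum it called 5 mt- genes and 1 nuclear gene, against 4.7% of all genes. The pools of the 2 genotypes did not overlap for 9 of 11 mt- genes, all higher in DBA/2J. Of these, 7 had over 1000 counts in every pool. mt-Atp6 and mt-Co3 had at most 78, and their low counts are not a measure of their RNA. Among the 86 nuclear genes 41 did not overlap, 26 higher and 15 lower, beside 34.5% of all tested genes (17.3% higher and 17.2% lower). Of the 8134 tested genes with at least 20 mean CPM, 3182 did not overlap, 1886 higher and 1296 lower. The 6 members below the count minimum were mt-Nd4l, mt-Atp8, Cox7b2, Cox8c, Ndufb11b and a second identifier of Atp5po, of which the last 3 had no count in any pool.

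All 7 well-counted mt- genes were higher in DBA/2J by a similar amount. Their log2 fold changes lay between 0.43 and 0.69 with a median of 0.59, where the median of all tested genes was -0.02 and that of the 86 nuclear members 0.02. The 4 genes with every window unique spanned 0.43 to 0.67, which is most of that range. Of the 7, only mt-Co1 and mt-Nd4 overlap the copy on chromosome 1.

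Among the mt- subunits of complex I, mt-Nd1, which helps form the coenzyme Q site, stood at 5586, 6052 and 4883 CPM in DBA/2J and at 4069 and 3292 CPM in Gpnmb+. mt-Nd2, a proton-pumping subunit, stood at 2904, 3226 and 2626 CPM against 2174 and 1742 CPM. mt-Nd4, another of the pumping subunits, stood at 2835, 3302 and 2756 CPM against 1907 and 1765 CPM. For each of these genes the lowest DBA/2J pool lay above the highest Gpnmb+ pool, and DBA/2J pool 2 was the highest of all. mt-Nd4 had the smallest adjusted p of any member, with a log2 fold change of 0.69 ± 0.136 (SE) and an adjusted p of 0.0879 in edgeR and 2.46e-06 in DESeq2. mt-Nd1 and mt-Nd2 differed by 0.58 each on the log2 scale, with edgeR adjusted p of 0.182 and 0.167 and DESeq2 adjusted p of 0.00461 and 0.00517.

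mt-Nd5, the largest of the pumping subunits, stood at 5196, 5934 and 5211 CPM in DBA/2J and 4016 and 3164 CPM in Gpnmb+. Its log2 fold change was 0.60 ± 0.162 (SE; edgeR adjusted p = 0.163, DESeq2 adjusted p = 0.00176). mt-Nd6 is the one mt- mRNA read from the opposite strand (chrM:13552-14070, minus strand), and it stood at 233, 257 and 219 CPM against 189 and 161 CPM. The groups did not overlap in either gene. The log2 fold change of mt-Nd6, 0.43 ± 0.116 (SE; edgeR adjusted p = 0.161, DESeq2 adjusted p = 0.0200), was the smallest of the 7. Counts of mt-Nd6 were 2.59%, 2.44% and 2.59% of those of mt-Cytb in DBA/2J and 3.02% and 2.96% in Gpnmb+. Whether the counting used strand is not stated, so RNA antisense to mt-Nd6 cannot be told apart from it.

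mt-Cytb, the cytochrome b of complex III, was 8989, 10556 and 8456 CPM in DBA/2J and 6268 and 5454 CPM in Gpnmb+. Its log2 fold change was 0.67 ± 0.169 (SE; edgeR adjusted p = 0.144, DESeq2 adjusted p = 0.000157). mt-Co1, the catalytic subunit of complex IV, was 14195, 16129 and 13929 CPM against 10621 and 8930 CPM, a log2 fold change of 0.59 ± 0.171 (SE; edgeR adjusted p = 0.181, DESeq2 adjusted p = 0.000360). DBA/2J pool 2 was again the highest in both genes and Gpnmb+ pool 2 the lowest. mt-Co1 made up a near-constant part of the mt- counts, 35.5%, 35.5% and 36.6% in DBA/2J and 36.3% and 36.4% in Gpnmb+. Per kilobase of transcript the DBA/2J means ran from 9548 CPM for mt-Co1 through 8159 for mt-Cytb, 5754 for mt-Nd1, 2986 for mt-Nd5, 2812 for mt-Nd2 and 2151 for mt-Nd4 to 455 for mt-Nd6, and the Gpnmb+ means had the same order. These are levels in poly(A)-enriched libraries, and the part of poly(A) tails in them, including that of mt-Nd6, was not tested. The complex V gene mt-Atp6 had only 20 to 32 counts in a pool and mt-Co3 39 to 78, and their log2 fold changes of 0.66 each had standard errors of 0.310 and 0.316.

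**Figure D3:**
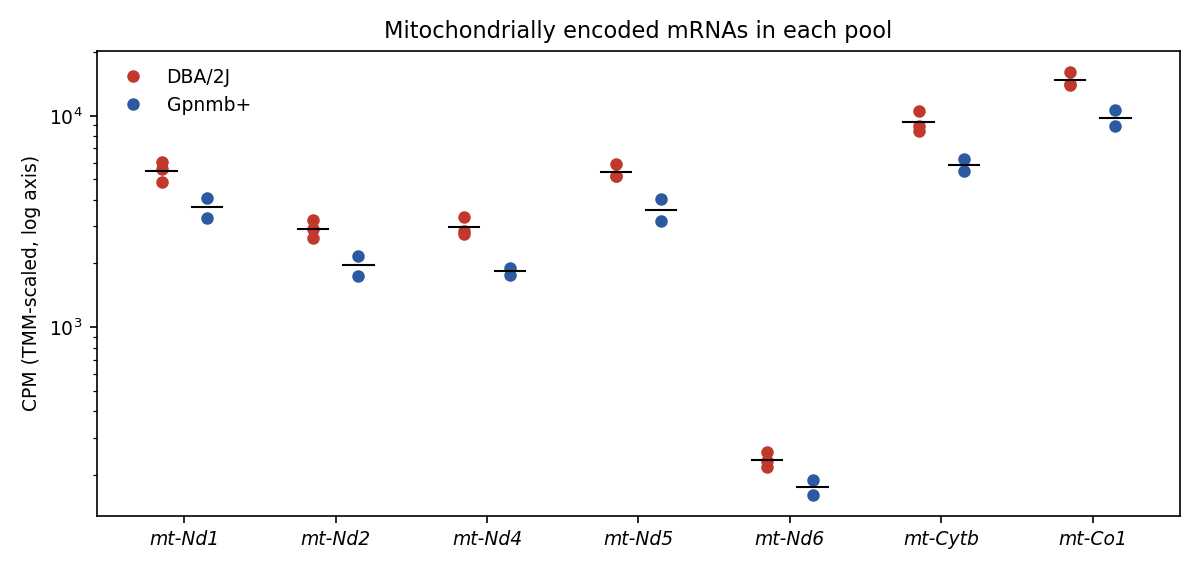
Points give the TMM-scaled CPM (log axis) of the 7 mt- genes with over 1000 counts in each DBA/2J pool (red, n = 3) and Gpnmb+ pool (blue, n = 2), and black lines the group means. In all 7 genes the lowest DBA/2J pool lies above the highest Gpnmb+ pool, with log2 fold changes of 0.43 to 0.69.

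RNA of neighbouring cell types differed between the pools as well. The summed level of 7 markers of the nonpigmented ciliary epithelium was 902, 1038 and 1166 CPM in DBA/2J and 372 and 206 CPM in Gpnmb+. All 7 markers were higher in every DBA/2J pool (17.3% of all tested genes were), and 2 of them were called by edgeR (0.796% in either direction). The 12 skeletal muscle markers summed to 307, 400 and 737 CPM against 307 and 193 CPM, with a positive log2 fold change in 12 of 12. The 10 photoreceptor markers summed to 646, 914 and 619 CPM against 377 and 2041 CPM, so that the Gpnmb+ pools lay on both sides of the DBA/2J pools. The 8 corneal epithelium markers summed to 7234 to 11522 CPM against 12841 and 11164 CPM, and the 10 trabecular meshwork markers, the tissue the dissection aimed at, to 5330 to 5914 CPM against 6561 and 6239 CPM. Of these 10 markers 7 were lower in every DBA/2J pool and 2 higher, beside 17.2% and 17.3% of all tested genes. In edgeR 2 of the 10 were called lower, where 0.796% of all tested genes were called in either direction. The part of these cell types in the mt- difference was not tested. Within DBA/2J the mt- share was highest in pool 2, while the ciliary and muscle markers were highest in pool 3. The mt- share was lowest in Gpnmb+ pool 2, which had the lowest ciliary and skeletal muscle sums (206 and 193 CPM) and the highest photoreceptor sum (2041 CPM). Ddx3y was highest in DBA/2J pool 2 and absent or nearly so in both Gpnmb+ pools.

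The nuclear subunits stayed close to level. Of the 86 tested, 49 had a positive and 37 a negative log2 fold change, and 74 lay within 0.2 of 0 where their median standard error was 0.087. Only 4 lay beyond 0.3: Cox6a2 and Ndufa4l2 above, Cox8b and Ndufa4 below. The complexes had medians of 0.02 for the 39 tested subunits of complex I, 0.15 for the 4 of complex II, 0.04 for the 8 of complex III, 0.0009 for the 17 of complex IV and -0.0027 for the 18 of complex V. For the mt- subunits of the same complexes the summed level was 1.52 times higher in DBA/2J in complex I, 1.59 times in complex III and 1.51 times in complex IV, against 0.998, 1.03 and 0.991 times for the nuclear subunits.

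**Figure D4:**
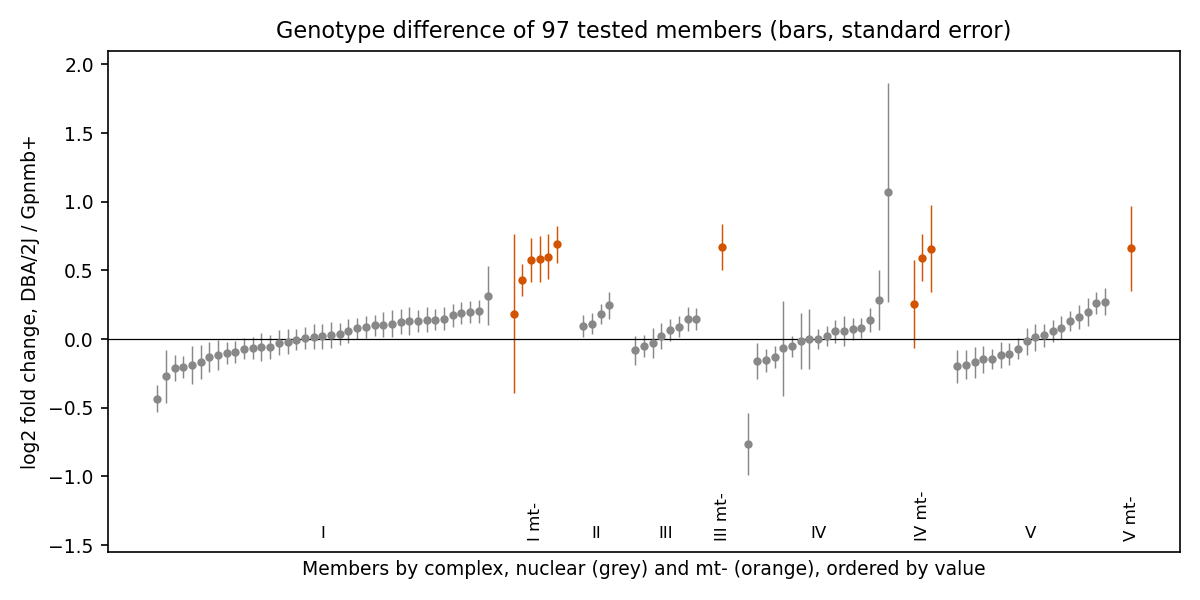
Log2 fold changes (DBA/2J over Gpnmb+) of the 97 tested members with their standard errors from edgeR, in order of value within each complex, nuclear subunits in grey and mt- subunits in orange. The mt- genes all lie above 0, but mt-Nd3, mt-Co2, mt-Co3 and mt-Atp6 among them had at most 78 counts in any pool. The nuclear genes lie on both sides of 0 with medians between -0.0027 and 0.15.

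Complex I had 40 nuclear genes, summing to 2302, 2280 and 2278 CPM in DBA/2J and 2263 and 2318 CPM in Gpnmb+. These groups overlapped. Of the 39 tested, 11 were higher in every DBA/2J pool and 9 lower, beside 17.3% and 17.2% of all tested genes. Of the 8134 tested genes with at least 20 mean CPM, 1886 were higher and 1296 lower. Ndufv1, the flavin subunit that accepts electrons from NADH, stood at 111, 103 and 102 CPM against 93.8 and 89.5 CPM (log2 fold change 0.20, edgeR adjusted p = 0.310). Ndufs1, the largest iron-sulfur subunit, overlapped at 126, 118 and 130 CPM against 124 and 106 CPM (0.11, edgeR adjusted p = 0.637). When the nuclear subunits were divided after their values were seen into the 7 that make up the catalytic core and the other 32, the core had 7 of 7 positive log2 fold changes with a median of 0.11, and the accessory subunits had 15 of 32 with a median of -0.01.

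Among the nuclear subunits of complex I, Ndufa4 was the gene with the lowest log2 fold change and the highest level per kilobase. Its protein was first assigned to complex I and is now known to bind cytochrome c oxidase. It stood at 261, 243 and 225 CPM in DBA/2J and 318 and 339 CPM in Gpnmb+, so that every DBA/2J pool was below both Gpnmb+ pools. The log2 fold change was -0.43 ± 0.0983 (SE), with an adjusted p of 0.115 in edgeR and 0.00355 in DESeq2. Ndufa4l2, its paralog known for induction in low oxygen, overlapped between groups at 6.0, 8.2 and 8.8 CPM against 6.8 and 5.5 CPM (log2 fold change 0.32 ± 0.216, SE).

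Ndufa4 is 1 of 4 members on chromosome 6, which also carries Gpnmb (chr6:49013426-49047863). Ndufa4 (chr6:11897630-11907496) lies 37.1 Mb from it, Ndufa5 (chr6:24518659-24528012) 24.5 Mb, Ndufb2 (chr6:39569490-39595671) 9.42 Mb and Ndufa9 (chr6:126798684-126826117) 77.8 Mb. Ndufa5, an accessory subunit, stood at 34.9, 33.8 and 36.2 CPM against 39.5 and 41.0 CPM (log2 fold change -0.20, edgeR adjusted p = 0.303). Ndufb2 stood at 9.7, 8.9 and 11.03 CPM against 11.1 and 11.4 CPM (-0.19, edgeR adjusted p = 0.562). Ndufa9, the member farthest from Gpnmb, stood at 76.9, 78.2 and 74.5 CPM against 69.9 and 64.6 CPM (0.19, edgeR adjusted p = 0.336). In all 4 genes the pools did not overlap, lower in DBA/2J in the 3 nearer genes and higher in Ndufa9. Over all tested genes 17.2% were lower and 17.3% higher without overlap. In Ndufb2 the closest pools were 11.03 CPM in DBA/2J and 11.1 CPM in Gpnmb+. The extent of DNA around Gpnmb that differs between the strains is not given in the sources used here.

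Of the X-linked members, Ndufa1, a small membrane subunit of complex I, stood at 44.3 to 44.8 CPM in DBA/2J and 39.95 and 43.7 CPM in Gpnmb+. Ndufb11 overlapped at 74.7 to 80.7 CPM against 71.4 and 80.9 CPM. Cox7b, a small subunit of complex IV, stood at 92.4 to 96.5 CPM against 98.5 and 107.9 CPM. Their log2 fold changes were 0.09, 0.02 and -0.13 (edgeR adjusted p = 0.650, 0.934 and 0.492).

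Complex II was the only wholly nuclear complex and had all its genes higher in every DBA/2J pool, as were 17.3% of all tested genes. Of the 8134 tested genes with at least 20 mean CPM, 1886 were. The 4 genes of complex II summed to 674, 690 and 700 CPM in DBA/2J and 624 and 581 CPM in Gpnmb+. The means were 688 ± 12.97 (SD, n = 3) and 603 ± 30.6 (SD, n = 2), a ratio of 1.14. Sdha, the flavoprotein that oxidizes succinate, stood at 353, 368 and 374 CPM against 328 and 287 CPM (log2 fold change 0.25 ± 0.0978, SE; edgeR adjusted p = 0.3003, DESeq2 adjusted p = 0.157). Sdhc and Sdhd, which anchor the enzyme in the membrane, had log2 fold changes of 0.18 and 0.11, and the iron-sulfur subunit Sdhb 0.09. No complex II gene passed either test after adjustment. Without Gpnmb+ pool 2 the value for Sdha was 0.15.

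In complex III, the 8 nuclear members, without Cyc1, summed to 808 to 825 CPM in DBA/2J and 774 and 812 CPM in Gpnmb+. Uqcrfs1, the Rieske iron-sulfur protein, had the highest log2 fold change of the 8, with 87.1, 80.5 and 86.6 CPM against 77.1 and 75.8 CPM (0.15, edgeR adjusted p = 0.425). Uqcrh, the hinge protein that binds cytochrome c1, had the lowest, with 165, 174 and 169 CPM against 163 and 195 CPM (-0.08, edgeR adjusted p = 0.745). Uqcrb, the member with the highest level per kilobase, overlapped at 86.8 to 91.9 CPM against 89.8 and 95.7 CPM. The 3 of 8 genes that did not overlap, Uqcrc1, Uqcrc2 and Uqcrfs1, were all higher in DBA/2J. Of all tested genes 34.5% did not overlap in either direction and 17.3% were higher. Of the 8134 tested genes with at least 20 mean CPM, 3182 did not overlap and 1886 were higher.

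Complex IV has the most tissue isoforms, and the widest log2 fold changes among its genes were those of 2 muscle-type forms, Cox6a2 and Cox8b. The value of Cox6a2, 1.07, became 0.15 without DBA/2J pool 3 and 2.06 without Gpnmb+ pool 1. Cox4i1, the ubiquitous form of the largest nuclear subunit, overlapped at 270, 286 and 274 CPM against 257 and 276 CPM, and held 98.2% to 98.6% of the Cox4 level per kilobase over all pools, with Cox4i2, the form known from lung and low oxygen, at 3.6 to 5.2 CPM. Cox6a1 held 95.1% to 99.0% of the Cox6a level per kilobase in DBA/2J and 98.1% and 99.3% in Gpnmb+. The common forms Cox6b1 (159.5 to 172.9 CPM over all pools) and Cox8a (118.7 to 142.1 CPM) also overlapped. Cox7a2 stood at 92.9, 87.0 and 94.1 CPM against 97.4 and 105.8 CPM, a log2 fold change of -0.15 (edgeR adjusted p = 0.430), and Cox7a2l, a relative known for its place in respiratory supercomplexes, overlapped at 52.4 to 62.4 CPM against 56.1 and 69.8 CPM.

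Cox8b, the isoform of subunit 8 typical of muscle and brown fat, was lower in DBA/2J. It stood at 19.0, 20.6 and 31.4 CPM in DBA/2J and at 37.1 and 43.2 CPM in Gpnmb+. The groups did not overlap, and DBA/2J pool 3 lay nearest to Gpnmb+. The log2 fold change was -0.76 ± 0.227 (SE), with an adjusted p of 0.193 in edgeR and 0.0411 in DESeq2. Per kilobase, Cox8b was 3.98% to 5.48% of the Cox8 level in DBA/2J and 7.58% and 7.92% in Gpnmb+.

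The other muscle-type isoforms did not share that order. Cox6a2 stood at 1.8, 1.0 and 5.2 CPM in DBA/2J and 1.9 and 0.6 CPM in Gpnmb+ (log2 fold change 1.07 ± 0.795, SE; edgeR adjusted p = 0.567), and Cox7a1 at 2.5, 2.6 and 4.5 CPM against 4.0 and 2.6 CPM (-0.07 ± 0.347, SE; edgeR adjusted p = 0.946). Both overlapped between groups and were highest in DBA/2J pool 3, the pool with the most skeletal muscle RNA. The part of muscle or fat RNA in the Cox8b values was not tested. The 4 brown fat markers summed to 6.55, 5.17 and 9.998 CPM in DBA/2J and 9.44 and 10.2 CPM in Gpnmb+. These sums overlapped between groups. As for Cox8b, pool 3 was the highest in DBA/2J and Gpnmb+ pool 2 the highest of all. Ucp1, the defining gene of brown fat, had at most 7 counts in any pool and was not tested. Of the other 3 markers 2 had negative log2 fold changes (Cidea -0.63 and Otop1 -0.76) and Elovl3 had a positive one (0.94). Cidea and Otop1 were lower in every DBA/2J pool (edgeR adjusted p = 0.183 and 0.520), as were 17.2% of all tested genes. Otop1 had at most 16 counts in any pool, and Elovl3 overlapped. Cox6b2, known as the testis form of Cox6b, stood at 12.3, 13.02 and 14.3 CPM against 13.4 and 8.3 CPM, and its log2 fold change of 0.28 became -0.02 without Gpnmb+ pool 2.

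**Figure D5:**
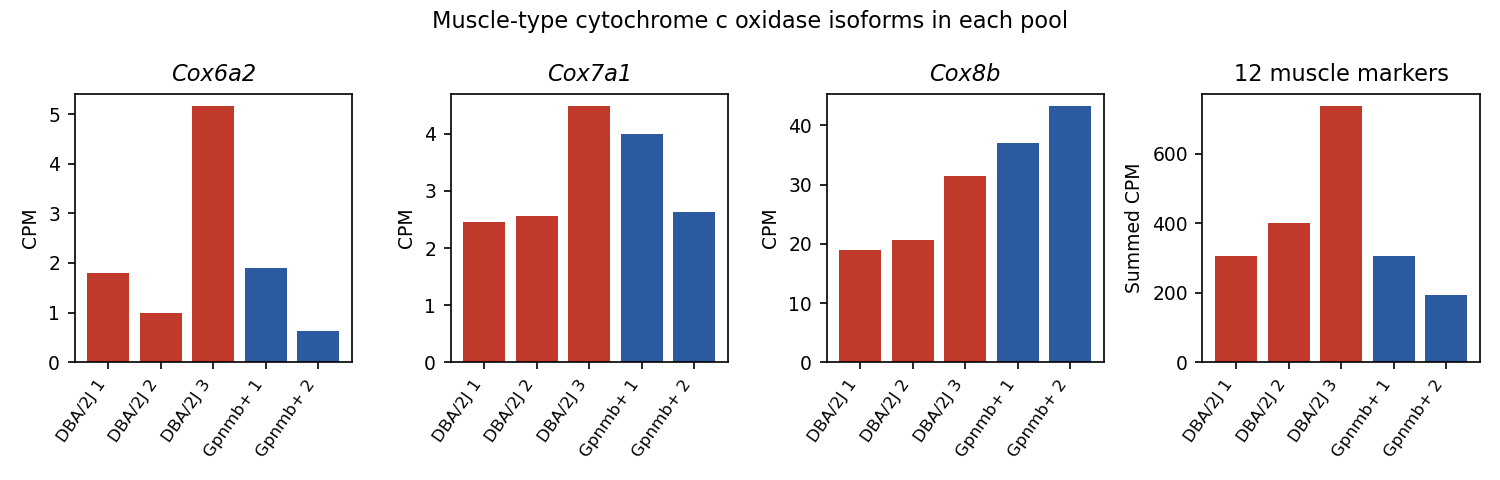
Bars give the TMM-scaled CPM of Cox6a2, Cox7a1 and Cox8b and the summed CPM of 12 skeletal muscle markers in each DBA/2J pool (red) and Gpnmb+ pool (blue), each panel on its own axis from 0. Cox6a2 and the muscle markers are highest in DBA/2J pool 3 (5.2 and 737 CPM), while Cox8b is highest in the Gpnmb+ pools (37.1 and 43.2 CPM).

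Complex V was the most abundant set of nuclear members, and its genes divided. The 19 genes summed to 3591, 3475 and 3495 CPM in DBA/2J against 3237 and 3199 CPM in Gpnmb+, a ratio of 1.09, although 9 of the 18 tested were positive and 9 negative. Atp5f1a, the alpha subunit of the catalytic head, had the highest log2 fold change, with 943, 910 and 891 CPM against 789 and 724 CPM (0.27 ± 0.0987, SE; edgeR adjusted p = 0.266, DESeq2 adjusted p = 0.0357). Atp5f1b, the catalytic beta subunit and the member of the complex with the highest level per kilobase, stood at 991, 931 and 984 CPM against 880 and 808 CPM (0.20, edgeR adjusted p = 0.399). In both genes the groups did not overlap. Atp5if1, the inhibitor that blocks reverse ATP hydrolysis, had the lowest log2 fold change, -0.20 (edgeR adjusted p = 0.472), and overlapped at 61.3 to 71.3 CPM against 67.6 and 81.9 CPM.

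The c subunit of the rotor is made from 3 genes that encode the same mature protein. Atp5mc3, the most abundant of them per kilobase, stood at 218, 202 and 212 CPM in DBA/2J and 175 and 176 CPM in Gpnmb+ (log2 fold change 0.26 ± 0.0804, SE; edgeR adjusted p = 0.204, DESeq2 adjusted p = 0.0289), and the groups did not overlap. Atp5mc1 stood at 56.7, 52.0 and 57.3 CPM against 51.3 and 47.7 CPM (0.16, edgeR adjusted p = 0.434), and Atp5mc2 overlapped at 43.6 to 47.3 CPM against 45.9 and 43.1 CPM. Only 34.7% of the 100-base windows of Atp5mc1 and 12.5% of those of Atp5mc2 were unique in the genome, against 100% for Atp5mc3, so the levels of the first 2 are incompletely counted. Among the 90 nuclear members 61 had every window unique and 5 had under 50%, the other 3 being Cox7c (31.7%), Ndufs5 (38.2%) and Atp5mg (42.6%).

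Long and short nuclear transcripts differed in their medians. The 43 tested members with a canonical transcript over 1000 bases had a median log2 fold change of 0.07, and the 43 shorter ones -0.01, a division chosen after the values were seen. Atp5f1a and Atp5f1b are among the longer transcripts, while Ndufa4 is among the shorter ones. Over all tested genes the median was -0.01 for transcripts over 1000 bases and -0.10 for shorter ones.

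The genes around the complexes were examined as 6 lists. None of them held a call in edgeR at the adjusted threshold; at its unadjusted p of 0.05 they held 0 to 5 genes each (15.9% of all tested genes passed), and at the adjusted p of DESeq2 0 to 2 (6.96% of all tested genes). The citric acid cycle enzymes had a positive log2 fold change in 16 of 17 genes, with a median of 0.16. Of the 17, 12 were higher in every DBA/2J pool, as were 17.3% of all tested genes and 1886 of the 8134 with at least 20 mean CPM. Ogdh, of the 2-oxoglutarate dehydrogenase complex, stood at 367, 357 and 364 CPM in DBA/2J against 305 and 297 CPM in Gpnmb+, a log2 fold change of 0.27 ± 0.0811 (SE; edgeR adjusted p = 0.2001, DESeq2 adjusted p = 0.00642). Mdh2, the mitochondrial malate dehydrogenase, stood at 192, 163 and 179 CPM against 147 and 141 CPM (0.30, edgeR adjusted p = 0.224). The electron carriers and coenzyme Q enzymes were positive in 11 of 18 genes (median 0.07), among them Cyc1, cytochrome c1 of complex III, at 0.15 and Cycs, cytochrome c, at 0.20.

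The genes that copy, transcribe and translate the mitochondrial genome lay on both sides of 0. Of 26 genes for mitochondrial DNA maintenance and transcription, 14 were positive and 12 negative, with a median of 0.05. Polrmt, the mitochondrial RNA polymerase, overlapped at 9.83, 9.43 and 11.1 CPM against 8.89 and 9.65 CPM (log2 fold change 0.12, edgeR adjusted p = 0.708), and Tfam, which packages mitochondrial DNA and starts its transcription, was 0.10 (edgeR adjusted p = 0.589). Of 78 mitochondrial ribosomal protein genes 47 were positive and 31 negative (median 0.02), and of 52 tested assembly factors 26 were positive and 26 negative (median 0.002).

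Among 13 regulators of mitochondrial biogenesis, a pair moved past the DESeq2 threshold in opposite directions. Esrrg, an orphan nuclear receptor that acts on oxidative metabolism genes, stood at 19.2, 19.3 and 20.6 CPM in DBA/2J against 13.4 and 11.4 CPM in Gpnmb+, a log2 fold change of 0.67 ± 0.120 (SE) with an adjusted p of 0.0778 in edgeR and 0.000136 in DESeq2. Gabpb2, a partner of the ETS factor Gabpa, stood at 80.7, 83.4 and 91.0 CPM against 122 and 109 CPM, -0.44 ± 0.0941 (SE), with adjusted p of 0.106 and 0.00509. In both genes the groups did not overlap. Ppargc1a, the coactivator PGC-1alpha, overlapped at 26.0, 28.7 and 38.2 CPM against 28.4 and 24.2 CPM. Nrf1, a transcription factor for many nuclear subunit genes, overlapped at 22.0 to 25.2 CPM against 25.3 and 23.5 CPM (edgeR adjusted p = 0.804).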

How the data were processed

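RNA was sequenced from 3 DBA/2J and 2 Gpnmb+ pools as poly(A)-enriched libraries read in pairs of 100 bases. After trimming with fastp and alignment to GRCm39 (Ensembl 110) with STAR, the authors deposited raw counts of reads aligned to a single place, summed per gene, with no normalization. Strand use in counting is not stated. Symbols, positions and canonical transcripts were taken from GENCODE M39, which held 56323 of the 56941 identifiers, and sequences from GRCm39.

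Tests used edgeR 4.0.16, DESeq2 1.42.0 and limma 3.58.1 under R 4.3.3, and the sequence search, tables and figures used Python 3.11.15 (matplotlib 3.10.9, numpy 2.4.6 and pandas 2.3.3). The main test was the quasi-likelihood test of edgeR between genotypes, with TMM scaling, no covariate and Benjamini-Hochberg adjustment over the 19713 genes that reached 10 counts in any pool. Calls needed an adjusted p of at most 0.05 and a 1.5-fold change. A positive log2 fold change means more RNA in DBA/2J. CPM are counts per 1000000 of the TMM-scaled library. The script was tested on simulated data. The depth of 43900661 to 49837758 counts per pool leaves counting error small for all members but those with few counts.

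The members and gene lists were chosen with earlier results of these data known. Genes named with values were the mt- genes, the highest and lowest log2 fold change and the highest level per kilobase among the nuclear genes of each complex, members called in any fit of all pools, tissue isoforms, catalytic subunits and members on chromosomes X and 6. Others named (Sdhc, Sdhd, Uqcrc1, Uqcrc2, Cox7c, Ndufs5 and Atp5mg, and the genes outside the complexes) were chosen after their values were seen. The alternatives were DESeq2's size factors in edgeR, scaling without mt- genes, other count filters, DESeq2, limma-voom, other call rules, the pool number as a block and each pool left out. Proteomics was not analysed here.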

Additional observations from a re-analysis of the deposited data

How the results depend on the processing

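The number of nuclear members called moved from 0 to 1 with DESeq2 (Cox8b), beside 4.7% of all tested genes. It moved to 7 of 86 with unadjusted p in edgeR, beside 15.9% of all tested genes. Rules added after the data were seen gave 4 with DESeq2 and no fold minimum (6.96% of all tested genes) and 11 with its unadjusted p (16.1%). The number of mt- members called moved from 0 to 1 without the count filter (mt-Nd4, adjusted p 0.0427), to 5 with DESeq2, and to 7 with unadjusted p in edgeR and with either added DESeq2 rule. The shares of all tested genes under the DESeq2 and unadjusted rules are those given for the nuclear members. With unadjusted p the lists held 1 of 26 genes for mitochondrial DNA, 2 of 13 biogenesis regulators, 4 of 17 citric acid cycle genes, 1 of 52 assembly factors and 5 of 78 ribosomal protein genes in edgeR. DESeq2 gave the same numbers. Of all tested genes 15.9% passed in edgeR and 16.1% in DESeq2. At the adjusted p DESeq2 called 1 biogenesis regulator, or 2 with no fold minimum, and 1 citric acid cycle gene with none. Of all tested genes 4.7% passed with the fold minimum and 6.96% without it. Apart from the replicate block given below, the other alternatives left these counts at 0.

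The median log2 fold change of the well-counted mt- genes ranged from 0.44 (without Gpnmb+ pool 2) to 0.75 (without Gpnmb+ pool 1) with 1 pool left out, that of the nuclear members from 0.0048 to 0.0606 (without Gpnmb+ pool 2), and the log2 ratio of mt- to nuclear counts from 0.41 to 0.68. With a Gpnmb+ pool left out, the lone pool is assumed to vary like the others. With mt-Nd6 alone, an alternative added later, the ratio was 0.36. It was 0.56 without mt- genes with exact nuclear copies. The planned form of that alternative, by copies named in the annotation, was not run, since GENCODE M39 names none.

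The adjusted p of mt-Nd4 ranged from 2.46e-06 to 0.301 over its alternatives, that of Cox8b from 0.0361 to 0.490 and that of Ndufa4 from 0.00355 to 0.370. With 1 pool left out the sign turned for Cox4i2 (-0.14 to 0.12), Ndufb11 (-0.064 to 0.11), Uqcrh (-0.21 to 0.054), Cox6b2 (-0.020 to 0.67), Cox7a1 (-0.40 to 0.27), Atp5mc2 (-0.016 to 0.079), Cox7a2l (-0.31 to 0.0048), Cox8a (-0.013 to 0.14) and mt-Nd3 (-0.15 to 0.63). Cox4i2 also turned without a count filter (0.0061). The cause was not tested.

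The pools share only numbers across genotypes, with nothing in the labels that pairs them. Deviations of same-numbered pools correlated at 0.33 and 0.32 over 8134 genes. With the pool number as a replicate block, 1 nuclear member was called, Cox8b (log2 fold change -1.02, adjusted p 0.0361), no mt- member was called, and Cox8a turned to -0.0068.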

Other observations

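The mitochondrial rRNAs, which lack the longer poly(A) tails of most mt- mRNAs and are counted here in poly(A)-enriched libraries, did not move alike. mt-Rnr1, the small subunit rRNA, stood at 567, 551 and 573 CPM in DBA/2J and 639 and 490 CPM in Gpnmb+, and the groups overlapped (edgeR adjusted p = 0.996). mt-Rnr2, the large subunit rRNA, stood at 2097, 2154 and 1849 CPM against 1681 and 1368 CPM, a log2 fold change of 0.42 ± 0.143 (SE; edgeR adjusted p = 0.250, DESeq2 adjusted p = 0.0464), and the groups did not overlap. Relative to the mt- mRNA counts, the rRNAs together came to 6.67%, 5.95% and 6.36% in DBA/2J against 7.93% and 7.58% in Gpnmb+.

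Markers of other cell types that the dissected ring can hold also differed between pools, and their part in the values of the oxidative phosphorylation genes was not tested. The 8 Schwann cell markers summed to 304, 350 and 325 CPM in DBA/2J and 399 and 455 CPM in Gpnmb+. Of these 8, 2 were called lower by edgeR, where 0.796% of all tested genes were called in either direction. The 11 smooth muscle and pericyte markers summed to 1415, 1431 and 1321 CPM against 1570 and 1487 CPM, and 10 of 11 had a negative log2 fold change. edgeR called 0 of them, and 1 was lower at the adjusted p of DESeq2, as were 2.67% of all tested genes. The 9 macrophage markers summed to 3191, 4311 and 3437 CPM against 3047 and 3885 CPM. The 7 pigment cell markers summed to 2678, 2625 and 3647 CPM against 3413 and 2954 CPM, and the 7 endothelial markers to 458, 350 and 420 CPM against 374 and 331 CPM. The sums of these 3 lists overlapped between groups. Single markers differed: 3 macrophage, 1 pigment cell and 1 endothelial marker were higher in every DBA/2J pool (17.3% of all tested genes). In the same order 0, 3 and 1 were lower (17.2%). edgeR called 1 pigment cell marker lower and 0 macrophage or endothelial markers, where 0.796% of all tested genes were called in either direction. The 6 white fat markers summed to 26.3 to 40.5 CPM over all pools.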
